A study of Mus musculus with 2 samples.

Results

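The ABC transporter superfamily was followed in the livers of 2 newborn mice. Its members were taken as every protein-coding gene with a symbol of the form Abca to Abcg followed by a number and, in some, a letter. The rule found 49 genes among 43346 Ensembl genes, of which 21474 are protein-coding. The genes were chosen by name and not by any measured value. RNA was measured by sequencing in whole liver of strain B6NCrl at 0 days after birth, from pup 1 and pup 2 of the same dam (litter 1), with 1 library per animal. Both livers form a single, unmanipulated group with no contrasting treatment, genotype or age, the sex was not collected, and each pup counts as 1 replicate (n = 2). The libraries were made from total RNA longer than 200 nucleotides with 10 ng of starting material, and a manual for the SMARTer Ultra Low RNA kit is among the linked protocols. Neither the priming nor the strandedness of the libraries is stated in the labels.

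ABC proteins carry an ATP-binding cassette, and most use ATP hydrolysis to move a substrate across a membrane. Subfamily A moves mostly lipids, B and C hold drug, phospholipid, conjugate and mitochondrial transporters, D works in peroxisomes and lysosomes, and G moves sterols, drugs and urate. Subfamilies E and F have no membrane domain and act on ribosomes and translation. In liver the canalicular members load bile with phospholipid, cholesterol and conjugated anions, the basolateral members return substances to blood or build high-density lipoprotein, and the mitochondrial and peroxisomal members serve iron, heme and fatty acid metabolism.

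The total of estimated read counts was 42124582 in pup 1 and 41443673 in pup 2, so 3 counts correspond to 0.0712 and 0.0724 CPM, counts scaled to the library total. The labelled tissue was borne out by its markers: 8 of 8 hepatocyte markers reached 1 TPM (a level scaled by transcript length and library depth) in both livers, with summed TPM of 111200 and 104600. The erythroid, macrophage, endothelial, bile duct and mesenchymal markers were likewise all detected, with summed TPM of 1366 and 1313, 529.5 and 519.9, 173.2 and 168.1, 109.2 and 80.27, and 237.7 and 224.2. The livers differed most in markers of other tissues. Summed skeletal muscle markers were at 53.04 TPM in pup 1 and 786.2 in pup 2 (10 of 10 higher in pup 2), pancreas markers at 1.99 and 106.4 (9 of 10 higher, Pnlip at 0 in both, and Prss1, Cel, Ins2 and Gcg at 0 in pup 1), and lung markers at 2.69 and 16.68 (4 of 4 higher). Intestinal markers were at 56.09 and 59.16, with 2 of 5 detected in both livers and Cdx2 at 0 in both. Most of that sum was Fabp2 (37.07 and 42.05) and Lgals4 (18.75 and 16.99). The part of these other tissues in the values of the ABC genes was not tested.

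The newborn liver expressed most of the superfamily at moderate levels. At a threshold of 1 TPM, 33 of the 49 genes (67.3%) were detected in both livers, 3 in pup 1 only and 13 in neither, while 52.9% of all protein-coding genes (11354) were detected in both. The median over the detected ABC genes was 9.12 TPM, against 10.2 for the detected protein-coding genes. In both livers 14 members were at 10 TPM or more, a level reached by 25.9% of protein-coding genes, and Abcd3 alone was at 100 TPM or more, a level reached by 4.57%. The 49 members together held 0.0692% of TPM in pup 1 and 0.0628% in pup 2 (mean 0.0660 ± 0.0045%, SD, n = 2). In whole tissue, fewer cells of a type and less RNA per cell cannot be told apart.

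**Figure D1:**
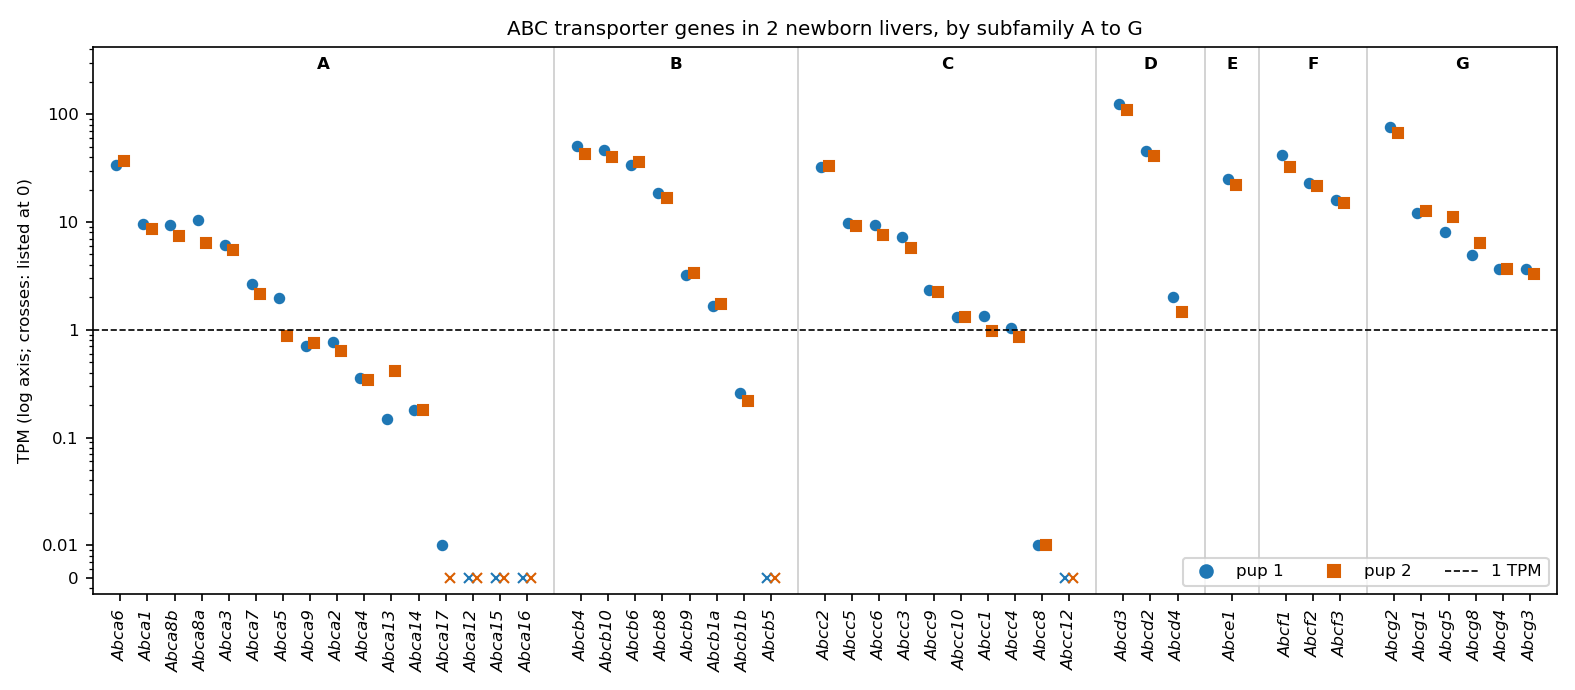
TPM of 47 of the 49 ABC genes (log axis) in pup 1 (circles) and pup 2 (squares), grouped by subfamily and ordered by mean, with crosses for values listed at 0 and a dashed line at 1 TPM. Subfamilies D, E, F and G lie entirely above the line, and subfamily A spans the range from 0 to 36.46 TPM.

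By summed level, subfamilies D and B led. Subfamily D held 25.4% of the members' TPM (167.4 ± 14.5 TPM, SD, n = 2), B 23.1% (152.3 ± 9.7), G 16.0% (105.7 ± 3.2), F 11.4% (74.95 ± 7.92), A 11.1% (72.91 ± 4.52), C 9.53% (62.88 ± 3.07) and the single E gene 3.57% (23.56 ± 2.45). Detection was complete in subfamilies D (4 of 4), E (1 of 1), F (3 of 3) and G (6 of 6). It was lower in B (7 of 9), C (6 of 10) and A (6 of 16), so the subfamily with the most genes was among the lower contributors. By site of action, canalicular genes held 25.4% of the members' TPM, peroxisomal 25.1%, mitochondrial 15.2%, cytosolic 14.9%, basolateral 5.41% and lysosomal 1.96%. The rest belonged to members on no site list, Abca6 and Abcg1 among them. The sites were assigned by list, and RNA of whole tissue does not measure them. Just 5 genes, Abcd3, Abcg2, Abcb4, Abcb10 and Abcd2, made up 48.6% of the members' TPM.

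The order of the levels was clear at the top and blurred below it. Abcd3 and Abcg2 each stood above the next gene by more than the range over the 2 livers. From Abcb4, the third, to Abcb6, the eighth, each neighbour overlapped the next over the livers (Abcb4, Abcb10, Abcd2, Abcf1, Abca6 and Abcb6). Of the first 14 neighbour comparisons, 6 overlapped.

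The peroxisomal genes gave the highest level of the superfamily. Abcd3, which encodes the peroxisomal half-transporter PMP70 for branched-chain and dicarboxylic acyl groups and bile acid precursors, was at 123.12 TPM in pup 1 and 108.78 in pup 2 (116.0 ± 10.1, SD, n = 2). The gene (ENSMUSG00000028127.6) lies at chr3:121758774-121815302 on the minus strand (GRCm38), and its counts were 14455 and 12856. It alone held 17.6% of the members' TPM and stood at the 95.9th percentile of protein-coding genes. Abcd2, a transporter of very long-chain and polyunsaturated acyl groups, was at 46.01 and 40.87 TPM. Both partners of the import of peroxisomal membrane proteins were detected, Pex19 at 80.23 and 74.57 TPM and Pex3 at 11.71 and 12.34.

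Genes of 1 family, site or function were also compared within each liver. Ratios within a pair were taken on the log2 scale of TPM in each liver. A ratio counted as larger than the spread if its sign was shared by the livers and its mean exceeded 3 SD. Of 15 pairs, 11 met this rule, 3 did not, and 1 had too few counts for a call. The pairs were chosen with earlier results of these data known. The share of other gene pairs that meet the rule was not computed, so the count does not set these pairs apart. No p-value was used, since an exact two-sided sign permutation test over 2 livers cannot go below 0.5. Abcd4, the lysosomal member of the subfamily that exports cobalamin, was at 2.01 and 1.47 TPM. Its known partners Lmbrd1 and Mmachc were at 24.05 and 22.17 TPM and at 9.51 and 9.49.

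Among the canalicular genes, Abcg2 was the most abundant. Abcg2, the exporter of urate, porphyrins and many drugs also called BCRP, was at 75.45 TPM in pup 1 and 66.25 in pup 2 (70.85 ± 6.51, SD, n = 2), at the 93.7th percentile of protein-coding genes. Nearly all of this RNA was assigned to 1 of 3 RefSeq starts. RefSeq (GRCm38.p6) lists starts at 58584533, 58596672 and 58640546 on the plus strand of chromosome 6, and the transcripts within 50 nucleotides of each held 0, 3.82 and 95.3% of the gene's TPM in pup 1 and 0, 4.51 and 94.6% in pup 2. The 100 bases before each start are shown to set the used start beside the others. Capitals mark GGGCGG, a letter run bound by Sp1-type factors.

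chr6:58584433-58584532, before the first start: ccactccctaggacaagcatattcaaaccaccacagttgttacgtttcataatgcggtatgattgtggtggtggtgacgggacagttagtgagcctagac
chr6:58596572-58596671, before the second start: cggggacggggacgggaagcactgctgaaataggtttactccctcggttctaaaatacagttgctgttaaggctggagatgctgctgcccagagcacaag
chr6:58640446-58640545, before the third start: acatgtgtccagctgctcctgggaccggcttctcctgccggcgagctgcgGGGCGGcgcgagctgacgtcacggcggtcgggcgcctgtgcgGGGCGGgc

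The stretch before the third start was 76.0% G and C with 14 CG dinucleotides, against 48.0% with 3 and 54.0% with 4 before the other starts. It held GGGCGG at bases 51 and 93 counted from the left, and the other stretches held none. The full-length transcript from the third start (Abcg2-202) was at 66.26 and 57.26 TPM. The full-length transcript from the second start (Abcg2-201) encodes the same length of protein-coding sequence, 1971 bases, and was at 2.88 and 2.99 TPM. A transcript was counted as full length when its coding sequence reached 90% of the longest annotated for the gene.

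The other canalicular transporters spanned a wide range. Abcb4, the floppase that moves phosphatidylcholine into bile, was at 50.29 TPM in pup 1 and 42.85 in pup 2. Abcc2, the exporter of bilirubin glucuronides and other conjugates also called MRP2, was at 32.64 and 32.81 TPM. Abcb1a and Abcb1b, the mouse P-glycoprotein genes for drug export, were at 1.66 and 1.75 TPM and at 0.26 and 0.22 TPM. The 3 genes Abcb1a, Abcb1b and Abcb4 lie side by side on the plus strand of chromosome 5, from 8660077 to 8959231, yet Abcb4 exceeded Abcb1a by 4.92 log2 units in pup 1 and 4.61 in pup 2 (27.2-fold). Abcb1a in turn exceeded Abcb1b by 2.68 and 2.99 log2 units, and both differences were larger than the spread. Part of the reads matched more than 1 of these similar genes: their counts were not whole (tolerance 0.005), as also in Abca3, Abcb6 and Abcc9. With the deposited posterior mean the ratios were 4.09 for Abcb4 over Abcb1a and 3.46 for Abcb1a over Abcb1b, in the same directions.

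The genes of the sterol transporter of bile were higher in pup 2, and as deposited they alone among the members were so with credible intervals of TPM that did not overlap. Abcg5 and Abcg8 encode the obligate partners that export cholesterol and plant sterols. Abcg5 was at 8.13 TPM in pup 1 and 11.09 in pup 2, and Abcg8 at 4.91 and 6.42. Both were thus higher in pup 2, with counts of 634 and 885 for Abcg5 and 459 and 587 for Abcg8. Per library total the counts of Abcg5 were 1.42-fold higher in pup 2 (95% counting interval 1.28 to 1.57) and those of Abcg8 1.30-fold (1.15 to 1.47). These exact binomial intervals cover counting error only and compare 2 animals. Abcg5 exceeded Abcg8 by 0.73 log2 units in pup 1 and 0.79 in pup 2 (mean 0.76 ± 0.04, SD, n = 2), a ratio larger than the spread. With full-length coding transcripts only, an alternative chosen after seeing the data, the ratio was 1.01 and 1.32. Abcg5 lay below Abcg2 by -3.21 log2 units in pup 1 and -2.58 in pup 2, which was also larger than the spread.

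Abcg5 and Abcg8 lie head to head on chromosome 17, Abcg5 on the minus strand (84658234 to 84683011) and Abcg8 on the plus strand (84676302 to 84700333). Their main RefSeq starts are 109 bases apart, and the whole stretch between them is shown because the genes share it and differed between the livers in the same direction. It is read on the plus strand, toward Abcg8. Capitals mark TTATCT, which is AGATAA on the opposite strand and is of the kind bound by GATA factors, and TTTATA, which is TATAAA on the opposite strand, the TATA box.

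chr17:84683012-84683120, between the starts of Abcg5 and Abcg8: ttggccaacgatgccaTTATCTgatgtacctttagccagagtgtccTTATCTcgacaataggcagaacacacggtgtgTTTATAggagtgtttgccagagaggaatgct

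The capitals begin at bases 17, 47 and 79, and the stretch held 3 CG dinucleotides. A match of letters is a description and not a site of binding. Another annotated start of Abcg8 at 84676302 lies inside Abcg5, and its transcript (Abcg8-202) held 23.2% of the gene's TPM in pup 1 and 32.4% in pup 2. The genes share 82 exonic bases on opposite strands, and without strand information reads there cannot be told apart. Abcg8-202 had 94.07 counts in pup 1 and 172.47 in pup 2, while the transcripts with the full coding sequence were at 3.77 and 4.34 TPM. For Abcg5 the full-length transcript was at 7.60 and 10.82 TPM.

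Basolateral genes were low as a group, with summed levels of 38.35 and 32.97 TPM against 173.3 and 161.4 for the canalicular genes. Abca1, which lipidates apolipoprotein A-I, was at 9.61 TPM in pup 1 and 8.62 in pup 2. Abcc6, whose loss causes ectopic mineralization, was at 9.42 and 7.57 TPM. Abcc5, a nucleotide and conjugate exporter, was at 9.69 and 9.16 TPM, and Abcc3, the basolateral counterpart of Abcc2 for glucuronides, at 7.25 and 5.79. The 6 basolateral genes were all lower in pup 2, as were 63.0% of all genes tested between the livers.

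Abcc1 and Abcc4 lay at the detection threshold. Abcc1 was at 1.35 and 0.97 TPM and Abcc4, an exporter of nucleotides and bile acids, at 1.03 and 0.86. Their counts were 252 and 170, and 206 and 170. Abcc2 exceeded Abcc3 by 2.17 log2 units in pup 1 and 2.50 in pup 2 (5.05-fold), and Abcc6 lay below Abcc2 by -1.79 and -2.12, both larger than the spread. With full-length transcripts only, the mean ratios were 1.67 and -0.75. The levels of Abcc2 and Abcc5 rest in large part on short transcripts, as described with the isoforms.

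Cholesterol efflux to lipoproteins is served by Abca1 and Abcg1, and the ratio of these genes within a liver was not larger than the spread. Abcg1 was at 12.15 TPM in pup 1 and 12.69 in pup 2. The log2 ratio of Abca1 over Abcg1 was -0.34 in pup 1 and -0.56 in pup 2 (mean -0.45 ± 0.16, SD, n = 2). Its sign was shared by the livers, and its mean fell just short of 3 SD. The partners of high-density lipoprotein were abundant: Apoa1 was at 23871.67 and 24077.36 TPM, Lcat at 282.78 and 300.94, Scarb1 at 92.70 and 95.50 and Pltp at 29.28 and 30.58. Abcg4 and Abcg3, the remaining genes of subfamily G, were at 3.67 and 3.69 TPM and at 3.67 and 3.32.

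Mitochondrial half-transporters were all detected. Abcb10, required for heme synthesis in red cell precursors, was at 46.85 TPM in pup 1 and 40.29 in pup 2. Abcb6, a porphyrin transporter, was at 33.49 and 36.17 TPM, and Abcb8 at 18.50 and 16.83. Abcb6 and Abcb10 did not differ beyond the spread, with log2 ratios of Abcb6 over Abcb10 of -0.48 and -0.16. With full-length transcripts only, which leaves out the short Abcb6-206, the ratios were -1.14 and -1.10 and larger than the spread. The 6 genes of mitochondrial iron and heme metabolism listed as partners were all detected. Among them were Glrx5 at 348.12 and 343.62 TPM, Slc25a37 at 118.21 and 109.65, Iscu at 95.30 and 94.95, Slc25a38 at 42.82 and 38.90 and Nfs1 at 35.05 and 33.64.

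The cytosolic members were detected throughout. Abce1, which recycles ribosomes, was at 25.30 TPM in pup 1 and 21.83 in pup 2. Abcf1, a translation initiation factor, was at 41.54 and 32.59 TPM, Abcf2 at 23.14 and 21.70 and Abcf3, linked to the integrated stress response, at 15.87 and 15.06. All 4 were lower in pup 2, beside the same 63.0% of all genes. Abce1 lay below Abcf1 by -0.72 and -0.58 log2 units, which was larger than the spread. That direction rests on the short transcript Abcf1-207: with full-length transcripts only, the ratio was 0.37 and 0.16, on the other side of 0 and within the spread. The other ribosome recycling genes listed were Etf1 at 27.32 and 27.75 TPM, Pelo at 6.05 and 6.66 and Hbs1l at 40.11 and 36.53.

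Subfamily A held both a well expressed group and most of the silent genes. Abca6 was at 33.68 TPM in pup 1 and 36.46 in pup 2, Abca8a at 10.47 and 6.33, and Abca8b at 9.41 and 7.48. Abca8a and Abca8b, close paralogs, did not differ beyond the spread, and the sign of their log2 ratio turned between the livers (0.15 and -0.24). With full-length transcripts only, which leaves out the short Abca8a-206, Abca8a lay below Abca8b in both, at -0.77 and -0.68 log2 units, larger than the spread. Abca3, the lipid transporter of lamellar bodies in lung, was at 6.10 and 5.46 TPM, and Abca7 at 2.68 and 2.15. Abca3 shares 9.75% of its exonic bases with D330041H03Rik on the opposite strand, which was at 5.13 and 4.11 TPM.

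Of the 13 members under 1 TPM in both livers, Abca2, Abca4, Abca9, Abca13, Abca14 and Abcb1b lay between 0.15 and 0.77 TPM. Abcc8, the sulfonylurea receptor of pancreatic beta cells, had 2 counts in each liver and Abca17 had 1 and 0. At this depth no difference in Abcc8 was detectable. Abca12, Abca15, Abca16, Abcb5 and Abcc12 had 0 counts in both livers, which allows up to 0.0712 CPM in pup 1 and 0.0724 in pup 2. The remaining lysosomal genes were Abcb9 at 3.23 and 3.33 TPM and Abca5 at 1.98 and 0.88. Abcc9, the sulfonylurea receptor of vascular potassium channels, was at 2.35 and 2.24 TPM. Of the channel pores it pairs with, Kcnj8 was at 6.00 and 5.28 TPM and Kcnj11 at 0 in both. Abcc10 was at 1.31 and 1.30 TPM.

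Some close neighbours on a chromosome differed widely in level and others were alike. On chromosome 5, Abcb8 at 18.50 and 16.83 TPM lay near Abcf2 at 23.14 and 21.70. Members that lie far apart were not compared in this way. In 14 instances a member lay within 250 kb of the next member, and 23 genes were involved. On the minus strand of chromosome 11, between 109932190 and 110337716, the order Abca8b, Abca8a, Abca9, Abca6 and Abca5 ran from 9.41 and 10.47 through 0.70 and 33.68 to 1.98 TPM in pup 1. The same genes were at 7.48, 6.33, 0.76, 36.46 and 0.88 TPM in pup 2. On chromosome 3, Abcd3 at 123.12 and 108.78 TPM lay 229140 bases from Abca4, a photoreceptor transporter, at 0.36 and 0.34. On chromosome 7, Abcc6 at 9.42 and 7.57 TPM lay 74220 bases from Abcc8 at 0.01 in both, and Abca14, Abca15 and Abca16 formed a row at 0.18 TPM or less in both livers.

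Promoter windows from RefSeq (GRCm38.p6, from 250 bases before to 50 after a start) were found for 37 of the 49 genes, in 44 windows. The windows of genes detected in both livers held a median of 20 CG dinucleotides (29 windows) and those of the other members 12 (15 windows). Over protein-coding genes in general the medians were 20 for detected genes (11506 windows) and 5 for the others (8644). GGGCGG on either strand occurred in 58.6% of the windows of detected members, 26.7% of those of the other members and 35.7% of all 32851 windows. Unlike the members, the set of all windows is not limited to protein-coding genes. TATAAA on either strand occurred in 15.9% of the members' windows and 13.6% of all, CCAAT in 36.4% and 37.4%, AGATAA in 13.6% and 11.2%, and AGGTCA, the core letters of many nuclear receptor sites, in 13.6% and 16.3%. AGGTCA was found in 6 of the 29 windows of detected members and in 0 of the 15 windows of other members. For TATAAA the shares in these windows were 20.7% and 6.67%, for CCAAT 34.5% and 40.0% and for AGATAA 10.3% and 20.0%. The motifs were not split by detection over all genes. No motif searched contains another, and the shares are descriptions. Of the nuclear receptors known to act on ABC genes, all 6 listed were detected, with Ppara at 161.07 and 145.36 TPM, Nr1i3 at 46.44 and 42.99, Nr1h2 at 28.99 and 29.60, Nr1h3 at 27.19 and 26.09, Nr1i2 at 12.14 and 12.71 and Rxra at 11.71 and 12.13.

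For some members much of the RNA was not assigned to transcripts with the full coding sequence. Across all members, 82.4% of TPM in pup 1 and 81.2% in pup 2 was assigned to full-length coding transcripts, and the median over the 33 detected genes was 88.9%. In 15 detected genes the share exceeded 90%, among them Abcd3, Abcd2, Abcb4, Abcb10, Abce1 and Abca1. In 4 it was under 50%: Abca6, Abcb9, Abcc2 and Abcc5.

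**Figure D2:**
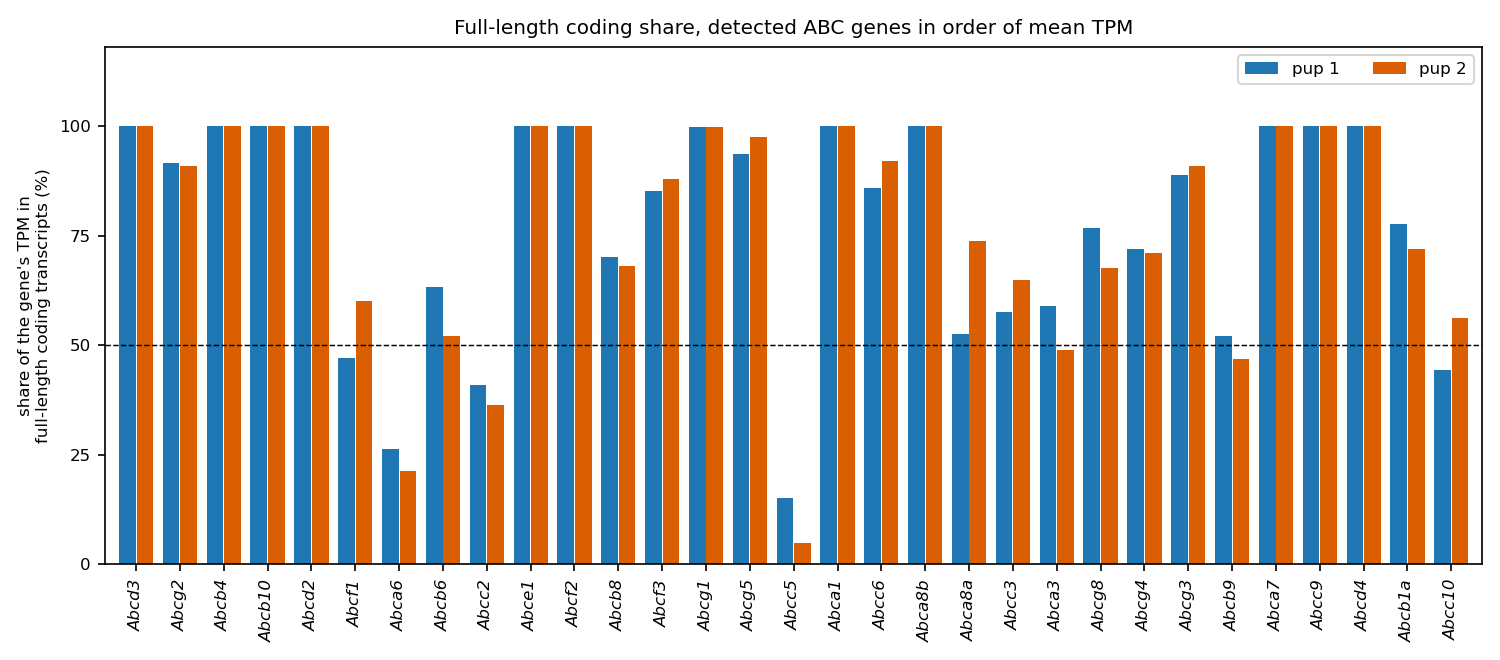
Share of each gene's TPM assigned to full-length coding transcripts (percent, bars from 0) in pup 1 and pup 2, for 31 of the 33 genes detected in both livers in order of mean TPM, with a dashed line at 50%. The bars range from near 100% to 4.91%, and Abca6 and Abcc5 are lowest.

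Abca6 was the most abundant example. Its noncoding transcript Abca6-202, of 1493 nucleotides, was at 24.84 TPM in pup 1 and 28.71 in pup 2, while the full-length Abca6-201 was at 8.84 and 7.74. The noncoding transcript was thus the more abundant in both livers, and it was higher in pup 2 where the coding transcript was lower. In Abcc2 the full-length Abcc2-201 was at 13.37 and 11.90 TPM, and the retained-intron transcript Abcc2-203, of 607 nucleotides, at 11.78 and 12.42. By reads Abcc2-201 was far ahead in both livers, with 3769.8 and 3379.1 counts against 212.85 and 225.94 for Abcc2-203. A short transcript gains much TPM from few reads.

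In Abcc5 the full-length Abcc5-202 was at 1.48 TPM in pup 1 and 0.45 in pup 2. The leading transcript by mean TPM, Abcc5-203, was at 2.07 and 2.70 TPM and encodes 624 of 4308 coding bases. An unnamed transcript of 496 nucleotides was at 2.35 and 1.93 TPM, and so was higher than Abcc5-203 in pup 1. By mean TPM of the livers, the leading transcript was not full length in Abca6 and Abcc5 alone among the 33. Within a single liver a retained-intron transcript was also the highest in Abcc2 and Abcb9 in pup 2. The same held for Abcc10 in pup 1, with Abcc10-203 at 0.66 TPM against 0.56 for the full-length Abcc10-204. Counting full-length transcripts only, Abcc10 was under 1 TPM in both livers and Abcc5 in pup 2, and 31 genes remained detected in both. Abcb9 was split between the full-length Abcb9-201 at 1.68 and 1.56 TPM and the retained-intron Abcb9-203 at 1.47 and 1.62. For Abcb6 a transcript of 416 nucleotides (Abcb6-206) took 11.60 and 17.00 TPM, and the full-length Abcb6-201 was at 21.20 and 18.81. Abcb6 also shares 55.2% of its exonic bases with the same-strand transcript Gm29253, which was at 0.73 and 0.48 TPM.

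Between the littermates, differences of 2-fold or more were rare among all genes, and by the main rule no member was called. Genes were compared on log2(TPM + 1), pup 2 over pup 1, where the mean TPM was 1 or more. A gene was called 2-fold apart when it differed by 1 or more on that scale and its deposited credible intervals of TPM did not overlap. Of 12711 genes tested, 80 (0.629%) were called, and of the 35 ABC genes tested, 0. With so small a share over all genes, 0 of 35 does not set the members apart. The same count was 0 from counts per library total, from counts scaled by the median of ratios, from the posterior mean TPM and without the filter on low values. With a pseudocount of 0.1 in place of 1 it was 1, Abca5. This comparison of 2 animals has no replicate check and no p-value, and the scale understates the change of low genes.

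Smaller differences were visible in the intervals. The deposited intervals did not overlap for 16 of the 35 members (45.7%), against 20.1% of all genes tested. For 14 members the value was lower in pup 2, against 13.8% of all genes, and for 2, Abcg5 and Abcg8, it was higher, against 6.27%. Among the 14 were Abcd3, Abcd2, Abcg2, Abcb4, Abcb10, Abce1, Abcf1, Abca1, Abca5, Abca7, Abca8a, Abca8b and Abcc6. The intervals carry counting and read assignment error only, and they narrow as counts grow, so abundant genes are called more easily. On the log2 scale, 26 of the 35 members were lower in pup 2 with a median of -0.14 (SD over genes 0.21), and 63.0% of all genes were lower with a median of -0.05 (SD 0.32).

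**Figure D3:**
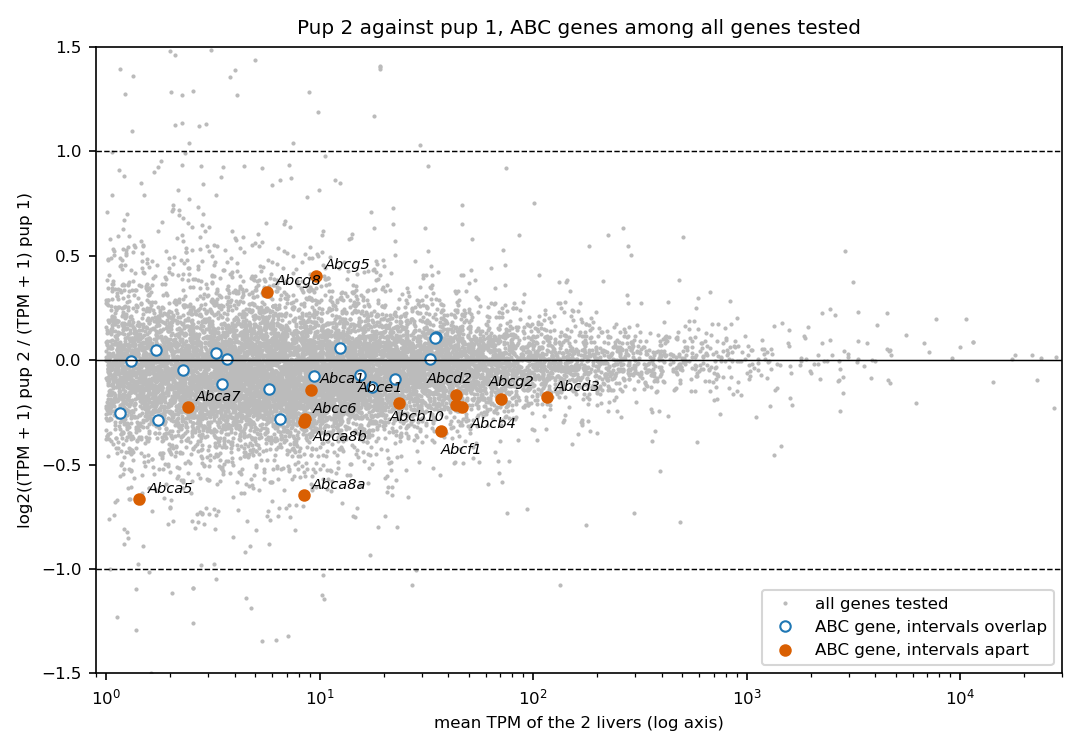
Log2 ratio of TPM + 1, pup 2 over pup 1, against mean TPM (log axis) for all genes tested (grey), ABC genes with overlapping intervals (open) and ABC genes with intervals apart (filled, named); dashed lines mark a 2-fold difference, and 110 genes lie outside the axis. The 33 ABC genes drawn, of 35 tested, lie between the dashed lines, with Abcg5 and Abcg8 highest and Abca5 and Abca8a lowest.

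Part of this shift was common to all genes. When pup 2 was multiplied by 1.04 so that the median ratio of all genes was 1, 14 members (40.0%) had intervals apart, against 18.8% of all genes, 3 higher and 11 lower, Abca6 joined those higher, and Abca1 and Abca8a were among those no longer apart. With intervals of FPKM, the other length-scaled unit deposited, Abca6 likewise joined and Abca8a was not apart. Among all genes with intervals apart, the share higher in pup 2 went from 31.2% to 57.8% under that scaling, and it was 45.7% with FPKM. With these 2 settings the members with intervals apart that were higher in pup 2 made up 21.4% and 18.8%, against 12.5% as reported. Abcg5 and Abcg8 were higher, and Abcd3, Abcg2, Abcb4, Abcb10, Abcd2 and Abce1 lower, in each of these settings. The summed markers of hepatocytes and of each of the 5 other liver cell types were also lower in pup 2, although 3 of the 8 hepatocyte markers were higher (Apoa1, Fgb and Afp), and their part in these differences was not tested.

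Reads and TPM did not always give the same difference, because TPM depends on which transcript a read is assigned to. For Abcf1 the counts were 2379 and 2302, a ratio per library total of 0.98 (95% counting interval 0.93 to 1.04), while TPM went from 41.54 to 32.59. Its full-length Abcf1-201 was at 19.56 TPM in pup 1 and 19.58 in pup 2, and a transcript of 376 nucleotides, Abcf1-207, at 19.07 and 10.81. Among the 16 members with intervals apart, the counting interval of the read ratio included 1 in Abcf1 alone. In Abca5, 255 and 204 counts stood behind 1.98 and 0.88 TPM, with Abca5-204, of 610 nucleotides, at 1.14 and 0.17 TPM from 20.76 and 3.15 counts. The full-length Abca5-201 was at 0.79 and 0.68 TPM.

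Abca8a gave the same picture. A transcript of 299 nucleotides, Abca8a-206, was at 4.23 and 1.57 TPM, and the full-length transcripts together were at 5.51 and 4.67. Abca13, at 75 and 88 counts, was listed at 0.15 and 0.41 TPM, of which full-length transcripts held 0.13 and 0.15. For the leading full-length transcript alone, the intervals were apart in 15 members. The share over all genes was not computed for this setting, so the count does not set the members apart. Among these were Abca1, Abca3, Abca6, Abca8b, Abcb4, Abcb6, Abcb10, Abcc2, Abcc6, Abcd2, Abcd3, Abce1, Abcg2 and Abcg5, while Abcf1, Abca5, Abca7, Abca8a and Abcg8 were not among them. Abca7, Abca8a and Abcg8 each have more than 1 full-length transcript, among which reads are split. The same is true of Abca3, Abca8b and Abcg2, which were among the 15. The part of such splitting in the calls was not tested.

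**Figure D4:**
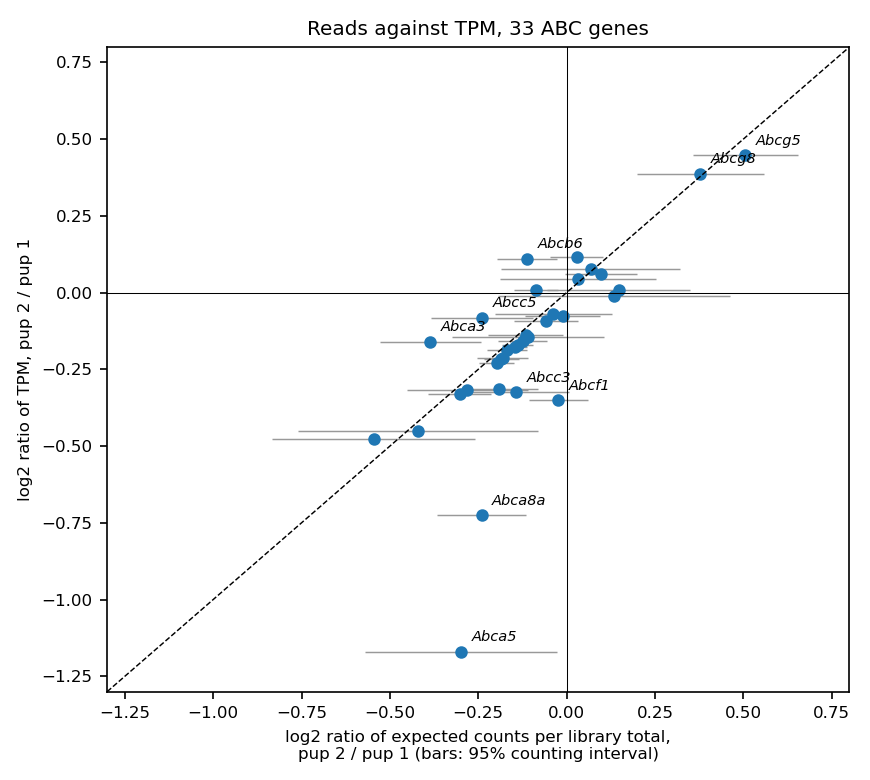
Log2 ratio of TPM against log2 ratio of expected counts per library total, pup 2 over pup 1, for 33 of the 35 ABC genes tested, with 95% counting intervals as bars and a dashed line where both are equal. Most genes lie near the line, Abca5, Abca8a and Abcf1 lie below it, Abca3 and Abcb6 above it, and Abcg5 and Abcg8 are positive on both axes.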

How the data were processed

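RNA of 2 whole livers was quantified against mm10 with GENCODE M4, per the deposited notes. The notes used here name no aligner or quantifier. The authors deposited, per gene and transcript, expected counts, TPM, FPKM, posterior mean TPM with credible bounds, and isoform percent; the level of the bounds is not stated, and they belong to the posterior mean. Transcript names, coordinates and coding lengths were taken from GENCODE M21 by Ensembl ID, which matched 207 of 212 member transcripts. Genes named are those at the highest level, on a site list, near the threshold, at 0, or differing between the livers. Levels, pair ratios, binomial counting intervals (95%) and promoter letters were computed with Python 3.11.15, pandas 2.3.3, numpy 2.4.6 and scipy 1.17.1. The size rule was tested on simulated data. Members, lists, pairs and motifs were chosen with earlier results of these data known, and the full-length rule after seeing the data. Some genes that match the naming rule or a list are not reported here. Alternatives changed the threshold, unit, scaling, pseudocount and filter.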

Additional observations from a re-analysis of the deposited data

How the results depend on the processing

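With 2 animals of 1 group, the precision is set by counting and read assignment within each library, and differences between animals have no replicate check. No paired analysis was possible because the study holds a single group. The members' share of TPM, 0.0660%, was 0.187% of expected counts, 0.0760% of the TPM of nuclear protein-coding genes and 0.0540% in full-length coding transcripts (the last chosen after seeing the data). The number 2-fold apart went from 0 to 1 with a pseudocount of 0.1. The number with intervals apart went from 16 to 7 where the mean TPM was 10 or more, since only 14 members were then tested; 28.2% of all genes passed that setting. The median share of the leading transcript was 83.2 ± 0.96% and became 78.5% with posterior means and 85.8% for genes at 5 TPM or more; it ran from 80.8% to 82.5% when either liver was left out. Members detected ran from 30 (2 TPM) to 38 (0.5 TPM), with 31 in full-length transcripts, and pairs beyond the spread from 11 to 14 (14 with either liver alone, by the side of 0). Of the other values recomputed for single genes and pairs, 134 stayed on the same side of the threshold or moved by less than 1 SD. These include log2 differences of pup 2 over pup 1 that shrank from TPM to counts per library total: Abcf1 from -0.34 to -0.02, Abca5 from -0.66 to -0.25 and Abca8a from -0.65 to -0.23. The uncalled ratio of Abca8a over Abca8b turned from -0.04 to 0.05 with posterior means. For pair ratios 12 values moved, 2 with posterior means and the others with full-length transcripts, 1 reversed (Abce1 over Abcf1, from -0.65 to 0.26 with full-length transcripts), and 3 genes lost their call on rescaling (Abca1 and Abca8a among them). The cause was not tested.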

Other observations

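Genes that are ABC transporters by structure but not by symbol were also measured. Tap1 and Tap2, which together form the peptide transporter of antigen presentation, were at 7.72 and 8.07 TPM and at 9.08 and 8.59 TPM in pup 1 and pup 2. Cftr, the chloride channel of bile duct cells, had 7 and 10 counts (0.04 and 0.05 TPM), although 6 of 6 bile duct markers were detected. Of the scaffold genes of the canalicular membrane, Slc9a3r1 was at 88.97 and 100.07 TPM, Rdx at 56.78 and 44.92, Pdzk1 at 50.30 and 42.74 and Ezr at 30.57 and 27.91.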
